A study of Homo sapiens with 24 samples.

Results

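The change over time in culture was examined in SH-SY5Y cells that carried a scrambled control and received no retinoic acid (RA), with 3 arrays on day 4 set against 3 arrays on day 2. These 6 arrays were chosen by their sample titles, out of 24 in the series. SH-SY5Y is an established human neuroblastoma line that is used as a model of neuronal differentiation. All 8 groups of the series hold 3 arrays each and consist of the same cell line. Without RA they are scrambled (SCR) on day 4, SCR on day 2, OE on day 4 and OE on day 2. With RA, all on day 2, they are OE, KD, OE+KD and SCR. KD is a knockdown of miR-125b by the labels, and OE is taken as its overexpression, which no label spells out (the source names write DP instead). The growth protocol in the labels describes a different experiment, so the sources used here do not give the reagents, their delivery, the RA dose, the event from which days were counted or whether replicates were separate cultures. The p-values below measure the spread between arrays, which may be technical.

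Neuroblastoma arises from the sympathetic nervous lineage, and SH-SY5Y cells divide continuously unless a cue such as RA moves them toward a neuron-like state. RA acts through nuclear receptors that bind DNA and switch on their target genes. A microRNA pairs with sites in messenger RNAs mainly through its seed, bases 2 to 8, and lowers the level or translation of those messengers. A scrambled control carries a sequence that is not designed to match a target, so that a change between days in such cells is the reference for a change between days under the microRNA. The mature sequence of the microRNA altered in the other groups is shown so that the control can be read against it, with the seed in capitals. It is the 5p arm, from RefSeq (GRCh38.p14), and its 22 bases are encoded identically by MIR125B1 (chr11:122099809-122099830, minus strand) and MIR125B2 (chr21:16590253-16590274, plus strand).
hsa-miR-125b-5p: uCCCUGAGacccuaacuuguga

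Each array gave 1 intensity for each of 20589 probes. The mean scanner intensity of the 6 scrambled arrays ran from 737.3 to 1134.2, within the 617.8 to 1134.2 of all 24 arrays, and 14.3% to 17.6% of their values were below 0 because a background had been subtracted before deposit. Levels are given as log2 of the background-corrected and quantile-normalized intensity, and 10691 probes that were bright enough in at least 1 group were tested. The SD of an array's deviations from its group mean was 0.091 to 0.125 on the 6 scrambled arrays and 0.099 to 0.277 on the 18 others. No table used here pairs the probes with genes. Marker genes of the cell line could therefore not be checked, no gene is named, and probe IDs are given for 4 probes, the 2 largest rises and the 2 largest falls.

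The days differed by more than the replicates of a day did. Over the tested probes, the SD of the log2 difference between a day 4 and a day 2 array was 0.230 to 0.272 in all 9 pairs. It was 0.143 to 0.173 in the 3 pairs of day 4 arrays and 0.138 to 0.183 in the 3 pairs of day 2 arrays, so no pair within a day reached the smallest value between days. Pairs of a day 4 and a day 2 array with the same replicate number differed by 0.230 to 0.244, and those with other numbers by 0.236 to 0.272. Correlations across probes, which are not independent, were 0.9880 to 0.9914 between days, 0.9952 to 0.9967 among day 4 arrays and 0.9946 to 0.9969 among day 2 arrays.

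**Figure D1:**
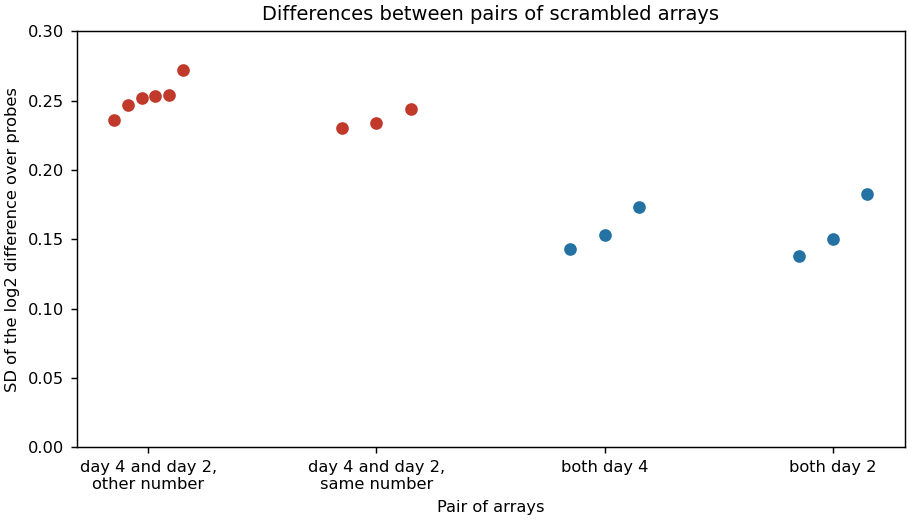
SD over 10691 probes of the log2 difference between each pair of scrambled arrays without RA (y axis), for pairs of 1 array from each day and for pairs within a day (x axis). Each point is a pair of arrays; the 9 pairs between days lie at 0.230 or above and the 6 pairs within a day at 0.183 or below.

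At an adjusted p under 0.05 in limma, 1315 probes differed between the days, which is 12.3% of those tested. On day 4, 619 were higher and 696 lower than on day 2. In RNA from whole cultures, fewer cells of a kind and less RNA per cell cannot be told apart. The median change was 0.39 log2 among the higher probes, or 1.31-fold, and -0.39 log2 among the lower ones. The middle 50% of the called sizes lay between 0.32 and 0.48 log2, and no called size was under 0.22. Over all tested probes the median size was 0.13 log2 and the median standard error 0.102. A change of at least 1.2-fold was reached by 586 higher and 667 lower probes, 1.5-fold by 65 and 76, and 2-fold by 5 and 7. The last count depends on how the background was treated: called changes of at least 2-fold numbered 12 here, 18 with an offset of 16 in place of 50, 67 with no background correction and 69 with the authors' normalized intensities. Under a stricter threshold of 0.01 on the adjusted p, 320 higher and 372 lower probes were called, and under 0.001, 108 and 149.

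The 3 values of day 4 and the 3 of day 2 did not overlap at 1306 of the 1315 called probes, against 38.4% of all tested probes (4105). Among those 4105, 2017 lay higher on day 4 and 2088 lower, and 2799 were not called by the adjusted p. All 1315 called probes moved the same way between arrays of each of the 3 replicate numbers, as 59.5% of all tested probes did; a test on the same arrays favours this. The direction of small changes depends on how arrays are scaled. With median scaling instead, 30.4% of 1004 called probes were higher on day 4, where quantile normalization gave 47.1%, and the change at the middle of all tested probes was -0.05 log2.

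Changes were found over the whole range of levels. With the tested probes cut into 5 classes of equal size by their mean level on the 6 arrays, the called share was 8.09% in the dimmest class, 12.7%, 15.2% and 13.5% in the next ones and 12% in the brightest. The median size of a called change lay between 0.37 and 0.40 log2 in every class. The cutoff on the adjusted p favours such like sizes, since the median standard error was also alike, at 0.106 log2 in the dimmest and 0.095 in the brightest class. Higher and lower probes were about equally many in the brightest class (129 and 128), whereas the dimmest held 66 higher and 107 lower. A probe was tested if bright enough in any group, and most groups are of day 2. This can favour falls among the dimmest probes, so that imbalance is not read. The offset used in the background correction compresses the changes of dim probes, so these shares are not comparable with those of bright probes as fold changes.

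**Figure D2:**
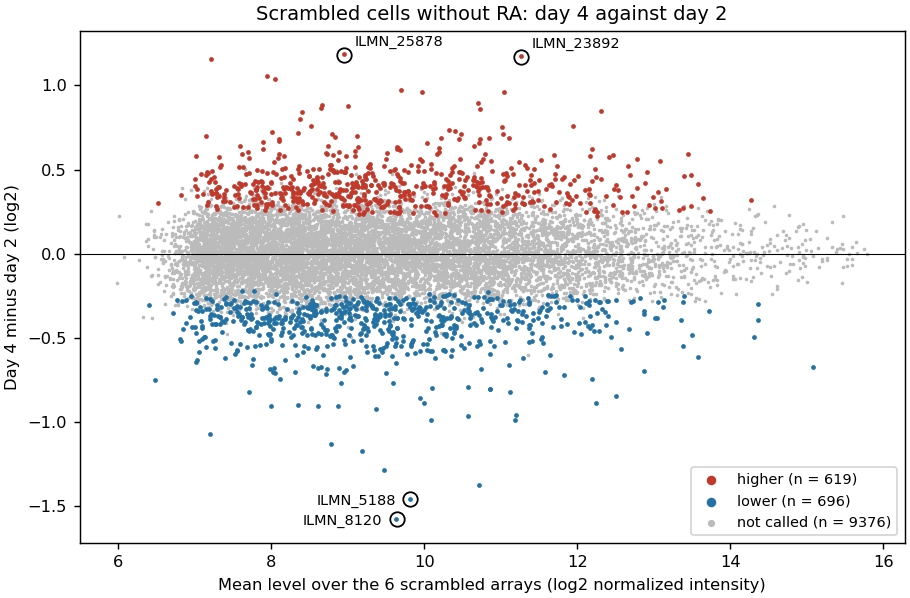
Day 4 minus day 2 in scrambled cells without RA (y axis, log2) against the mean level over the 6 arrays (x axis, log2 normalized intensity), 1 point per tested probe, with called probes in colour and the 4 named probes circled. The 619 higher and 696 lower probes spread over all levels, and 12 of them lie beyond 1 log2 in either direction.

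The probes named below were chosen for their separation between days on the scrambled arrays. This also favours an extreme place of scrambled cells on day 4 in the series. ILMN_25878 had the largest rise. Its scanner intensity was 614.9, 566.3 and 840.3 on day 4, against 223.3, 291.0 and 344.4 on day 2. After normalization its level was 9.57, 9.44 and 9.62 log2 on day 4, against 8.42, 8.30 and 8.36 on day 2. Every day 4 array thus lay more than 1 log2 above every day 2 array. The fitted difference was 1.18 log2 (SE 0.128, 95% interval 0.92 to 1.45, 2.27-fold, limma adjusted p = 1.03e-06). No other group of the series reached its day 4 level in scrambled cells. Its mean was 8.49 ± 0.12 in OE cells on day 4 and 8.43 ± 0.18 in OE cells on day 2, and 7.72 to 8.00 in the 4 groups with RA (SD, n = 3 each).

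ILMN_23892 was the second, and the brightest of the 4. Its scanner intensity was 3586.2, 3268.6 and 4054.9 on day 4, against 1475.0, 1875.4 and 1944.7 on day 2. Normalized levels were 11.96, 11.84 and 11.76 log2 on day 4, against 10.80, 10.70 and 10.54 on day 2, without overlap. The difference was 1.17 log2 (SE 0.117, 95% interval 0.93 to 1.42, limma adjusted p = 2.78e-07). The highest level of this probe among the 8 groups was that of scrambled cells on day 4, 11.85 ± 0.10, and the lowest were those of the groups with RA, 7.63 ± 0.23 in OE, 7.31 ± 0.14 in KD, 7.56 ± 0.15 in OE+KD and 8.28 ± 0.14 in SCR cells (SD, n = 3 each). RA thus went with a lower level of this probe, where time without RA went with a higher one in scrambled cells. Between the same days in OE cells without RA the change was 0.11 log2 (95% interval -0.13 to 0.35). RA minus no RA in scrambled cells on day 2 was -2.40 log2 (limma adjusted p = 1.72e-14). That comparison shares the day 2 arrays with the change over time in scrambled cells. In OE cells, which share no array with it, RA minus no RA was -2.25 log2 (limma adjusted p = 7.74e-14), and -2.12 without the OE array with RA that had the largest SD (replicate 2). The same difference in OE cells was -0.58 log2 for ILMN_25878 (limma adjusted p = 0.00167), 0.02 for ILMN_8120 (0.918) and 0.24 for ILMN_5188 (0.0765). Among the 12 largest rises RA in OE cells called 2 higher and 3 lower, and likewise 2 and 3 among the 12 largest falls. Of all tested probes it called 11.3% higher and 11.6% lower. The groups share an estimate of each probe's spread, which favours calls among these probes, so nothing is read from the counts.

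The largest fall was at ILMN_8120. Its scanner intensity was 338.3, 353.2 and 441.6 on day 4, against 985.7, 1589.5 and 1966.5 on day 2. Normalized levels were 8.86, 8.86 and 8.83 log2 on day 4, against 10.25, 10.47 and 10.56 on day 2. The day 4 arrays agreed to within 0.03 log2, and the spread lay in the day 2 arrays. The difference was -1.58 log2 (SE 0.095, 95% interval -1.77 to -1.38, 2.98-fold, limma adjusted p = 4.30e-11). Scrambled cells on day 4 held the lowest level of this probe in the series, the other 7 groups lying between 10.20 ± 0.06 in OE cells on day 4 and 11.06 ± 0.13 in OE cells with RA (SD, n = 3 each).

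ILMN_5188 fell by nearly as much. Its scanner intensity was 398.0, 455.0 and 532.3 on day 4, against 1102.6, 1770.2 and 2055.2 on day 2. Normalized levels were 9.04, 9.17 and 9.06 log2 on day 4, against 10.41, 10.61 and 10.62 on day 2, and the groups stood apart by more than 1 log2. The difference was -1.46 log2 (SE 0.096, 95% interval -1.66 to -1.26, limma adjusted p = 1.67e-10). Its level was 10.18 ± 0.13 in OE cells on day 4 and between 10.55 and 10.78 in the other 6 groups, so scrambled cells on day 4 again lay below all others.

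**Figure D3:**
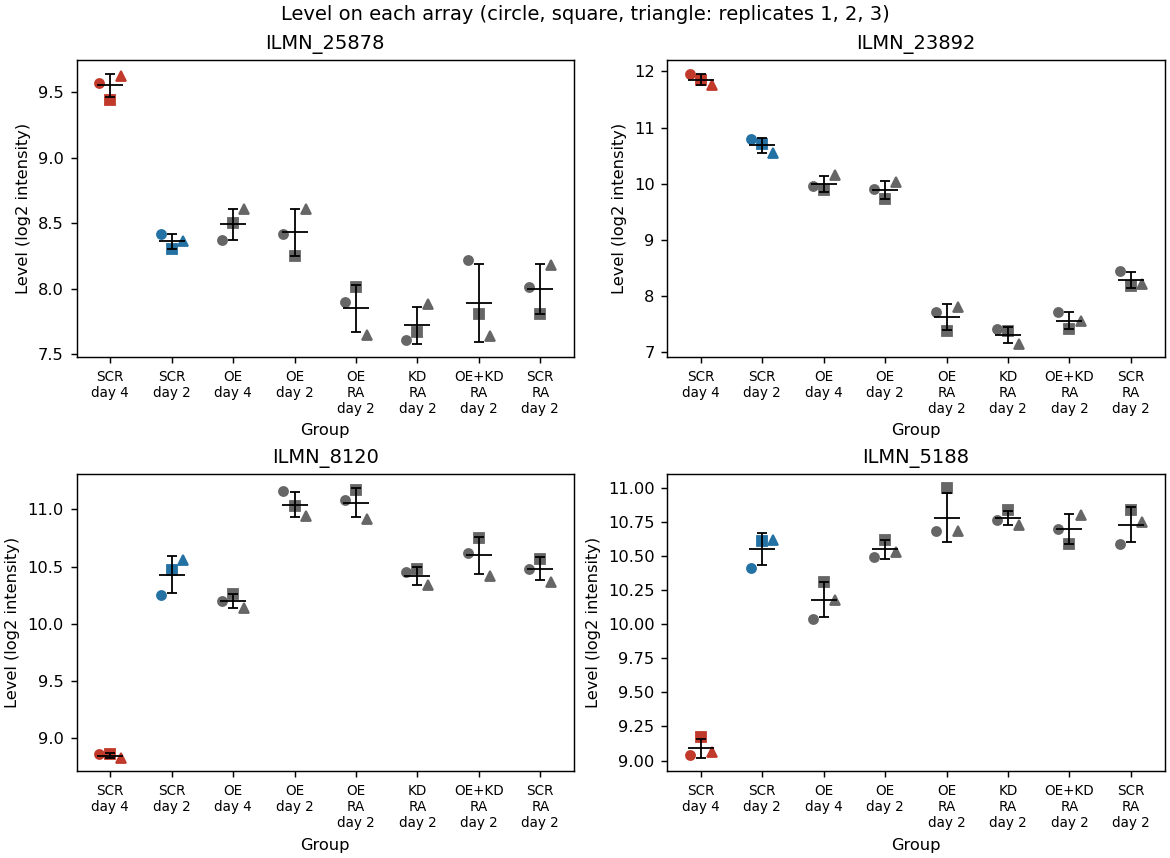
Level of the 4 named probes (y axis, log2 normalized intensity) on each of the 24 arrays by group (x axis), with the mean and SD of the 3 arrays as a bar. Scrambled cells on day 4 (red) lay apart from scrambled cells on day 2 (blue) and from the 6 other groups, above them for ILMN_25878 and ILMN_23892 and below them for ILMN_8120 and ILMN_5188. The red and blue arrays chose the probes, which fixes their separation and favours an extreme place of the red ones.

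The same rule took in 10 further probes on each side. The rises among them ran from 0.86 to 1.16 log2 (1.82- to 2.24-fold) and the falls from -0.92 to -1.38 log2 (1.9- to 2.59-fold), with limma adjusted p-values from 4.30e-11 to 0.00134. Their mean levels on the scrambled arrays lay between 7.21 and 11.20 log2, so they were not confined to dim probes. Of the 12 probes that changed at least 2-fold under this background correction (67 without one), the 8 without a name here comprise 3 that rose, by 1.16, 1.06 and 1.04 log2, and 5 that fell, with differences of -1.07, -1.13, -1.18, -1.28 and -1.38 log2. All 12 had day 4 and day 2 values that did not overlap, against 38.4% of all tested probes. Choosing called changes of this size on the same arrays favours this, so nothing is read from it.

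The change between the same days in OE cells shares no array with the change in scrambled cells, and was used to read the called probes a second time. Anything else that differed between the days in both kinds of cells cannot be told apart from time. In OE cells 1418 probes were higher and 1418 lower on day 4, or 13.3% of the tested probes in each direction and 26.5% in all. Of the 619 probes that rose in scrambled cells (the risers), 236 were called higher in OE cells (38.1%) and 32 lower (5.17%). Of the 696 that fell (the fallers), 239 were called lower (34.3%) and 34 higher (4.89%). Counted from the OE side, the shared rises were 16.6% and the shared falls 16.9% of the probes called in that direction. The median change in OE cells was 0.17 log2 for the probes that rose in scrambled cells, -0.14 for those that fell and 0.01 for all tested probes. A change of the same sign, called or not, was seen at 75.4% of the risers and at 72.3% of the fallers. Of all tested probes, 52.3% had a positive and 47.7% a negative change in OE cells. With median scaling the middle of all tested probes moved to 0.15 log2 in OE cells, with the risers at 0.33 and the fallers at 0.00, so the fallers' change was negative only relative to the other probes.

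The larger a probe's change in scrambled cells, the larger was its median change in OE cells. Fallers under 0.3 log2 in size had a median of -0.07 in OE cells (n = 120), those from 0.3 to 0.5 a median of -0.13 (n = 423), those from 0.5 to 0.75 a median of -0.24 (n = 125) and those of 0.75 or more a median of -0.50 (n = 28). The share called lower in OE cells went in the same order, at 25.8%, 31.4%, 45.6% and 64.3%. For risers in the same classes the medians were 0.14 (n = 96), 0.17 (n = 401), 0.25 (n = 103) and 0.29 (n = 19), and the share called higher was 34.4%, 37.2%, 45.6% and 36.8%. The last class of risers, with 19 probes, did not go on with the order of the shares. Across all tested probes the changes of scrambled and OE cells correlated with r = 0.250, and across the 1315 called in scrambled cells with r = 0.520. The latter value pools risers and fallers, which were chosen with opposite signs. Within the risers alone r was 0.130, and within the fallers alone 0.276. These correlations are over probes of the same arrays and are given as a description.

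**Figure D4:**
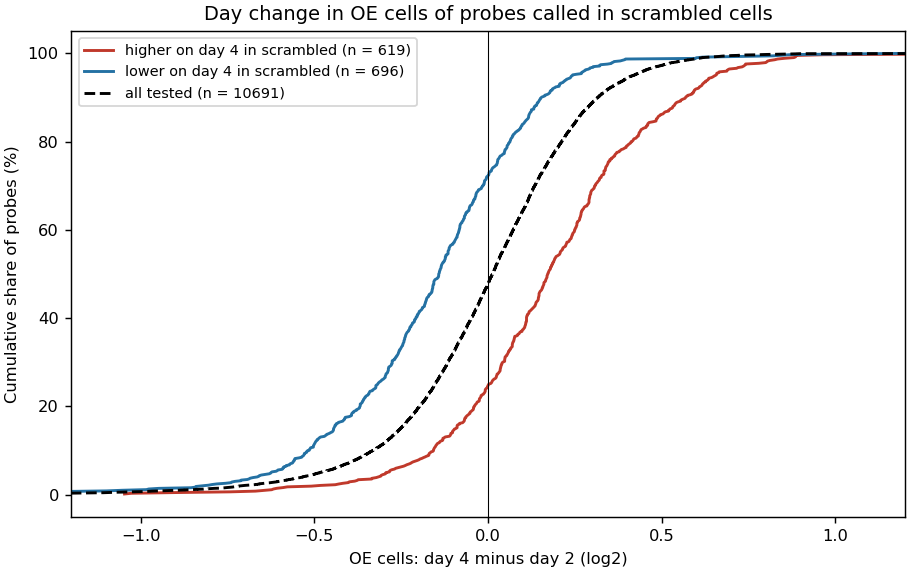
Cumulative share of probes (y axis, %) by day 4 minus day 2 in OE cells (x axis, log2), for probes that were higher or lower on day 4 in scrambled cells and for all tested probes. The curve of the higher probes lies to the right of all tested probes (median 0.17 against 0.01) and that of the lower probes to the left (median -0.14).

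Part of the change over time differed between OE and scrambled cells. The difference of the day effects, OE minus scrambled, was called at 1373 probes, 12.8% of those tested. Of these, 369 were called for the day in scrambled cells, 96 of them in OE cells as well. A further 864 were called for the day in OE cells alone and 140 in neither. Among the probes called in scrambled cells, 168 risers (27.1%) and 201 fallers (28.9%) had a called difference, and 157 and 192 of these moved less or the other way in OE cells. Those shares use the scrambled arrays that chose the probes, which favours a difference in that direction, so nothing is read from them. The other 946 of the 1315 probes had no called difference, which does not show that the 2 kinds of cells changed alike.

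The 4 named probes were chosen for their large changes in scrambled cells, which favours a smaller change elsewhere, so that their values in OE cells are set beside those in scrambled cells as a description. ILMN_25878 changed by 0.06 log2 in OE cells (95% interval -0.20 to 0.33, limma adjusted p = 0.75) and ILMN_23892 by 0.11 (95% interval -0.13 to 0.35, limma adjusted p = 0.518). ILMN_5188 fell by 0.37 log2 (limma adjusted p = 0.00598). ILMN_8120 fell by 0.84 log2 (limma adjusted p = 4.74e-07), with 10.20 ± 0.06 log2 on day 4 in OE cells, against 11.04 ± 0.11 on day 2 (SD, n = 3 each). The difference of the day effects, OE minus scrambled, was -1.12 log2 for ILMN_25878, -1.06 for ILMN_23892, 0.74 for ILMN_8120 and 1.09 for ILMN_5188; no test of it is given, since it uses the arrays that chose the probes. Among the 12 largest rises 5 were called higher in OE cells and none lower, and among the 12 largest falls 9 were called lower and none higher, where 13.3% of all tested probes were called in each direction. The shared estimate of a probe's spread favours calls among these probes too. One unnamed probe had a change of -1.60 log2 in OE cells, against -1.38 in scrambled cells.

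The called probes were then read in the other comparisons that share no array with the scrambled cells without RA. RA against no RA in OE cells on day 2 called 11.3% of all tested probes higher and 11.6% lower. Of the probes that rose with time in scrambled cells it called 58 higher (9.37%) and 173 lower (27.9%), with a median of -0.13 log2 against -0.01 for all tested probes. Of those that fell with time it called 150 higher (21.6%) and 114 lower (16.4%), with a median of 0.01. The risers were thus called lower by RA more often than higher, while the fallers were called in both directions more often than the tested probes as a whole. The shared estimate of a probe's spread favours an excess in both directions, so the latter is not read as a trait of the fallers. Across all tested probes the changes correlated with r = -0.086. The signs of the risers' medians in this comparison and the next ones were the same with median scaling, cyclic loess and the authors' normalized intensities.

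OE against scrambled cells, both with RA, called 19.8% of all tested probes in each direction. The risers were called higher at 140 probes (22.6%) and lower at 189 (30.5%), with a median of -0.07 log2. The fallers were called higher at 221 (31.8%) and lower at 147 (21.1%), with a median of 0.05. KD against scrambled cells, both with RA, called 8.59% of all tested probes higher and 7.69% lower. Of the risers it called 129 higher (20.8%) and 52 lower (8.4%), with a median of 0.06 log2, and of the fallers 93 higher (13.4%) and 108 lower (15.5%), with a median of -0.03. In all 4 of these comparisons, the probes that changed with time in scrambled cells were called more often than the tested probes as a whole: 41.1% against 26.5% for time in OE cells, 37.6% against 22.8% for RA, 53% against 39.7% for OE and 29% against 16.3% for KD. The shared estimate of a probe's spread favours such an excess, so nothing is read from it. The 2 comparisons within RA share the scrambled arrays with RA, those of time and RA in OE cells share the OE arrays of day 2 without RA, and those of RA in OE cells and of OE with RA share the 3 OE arrays with RA, so these are not 4 separate observations. Replicate 2 of OE with RA had the largest SD from its group mean of all 24 arrays, 0.277. Without it, an alternative added after the data were seen, the risers' median was -0.11 log2 for RA in OE cells, with 60 called higher and 150 lower, and -0.05 for OE with RA, with 143 called higher and 166 lower. Of the 1315 probes, RA in OE cells then called 35.8%, against 20.5% of all tested probes, and OE with RA called 49%, against 35.8%.

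The mean level of the 619 risers minus that of the 696 fallers placed every array of the series on 1 scale. The scrambled arrays without RA, which chose the probes, stood at 0.54 ± 0.02 log2 on day 4 and -0.31 ± 0.01 on day 2. OE cells without RA stood at 0.08 ± 0.03 on day 4 and -0.26 ± 0.02 on day 2. Their day 4 arrays lay at 0.07 to 0.12 and their day 2 arrays at -0.28 to -0.23, without overlap. The 4 groups with RA, all on day 2, stood at -0.35 ± 0.05 in OE, -0.18 ± 0.03 in KD, -0.25 ± 0.01 in OE+KD and -0.28 ± 0.01 in SCR cells (SD, n = 3 in each group). The 15 arrays of day 2 outside the choice lay between -0.41 and -0.15, below the 3 OE arrays of day 4. The zero of this scale depends on how bright the probes of each set are, so only differences between arrays are read.

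**Figure D5:**
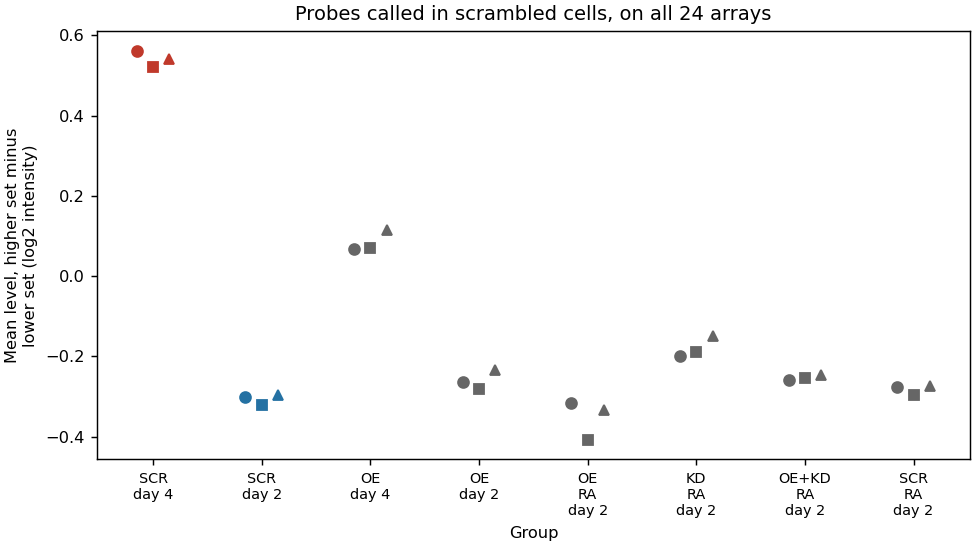
Mean level of the 619 probes that were higher minus that of the 696 probes that were lower on day 4 in scrambled cells (y axis, log2 intensity), on each of the 24 arrays by group (x axis). The red and blue arrays chose the probes; among the others, the OE arrays of day 4 lie at 0.07 to 0.12 and the 15 arrays of day 2 at -0.41 to -0.15.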

How the data were processed

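Expression was measured on 24 Illumina arrays of SH-SY5Y cells, with biotin-labelled total RNA per the labels' protocols. The deposited scanner table holds linear intensity values with a background already subtracted, as its values below 0 show, and the sources used here name no array version or scanner software. The intensity values normalized by the authors, with values under 20 set to 20, served as an alternative. A deposited table of 5 fold changes holds none between days and was not used.

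Background correction (normexp, offset 50), quantile normalization and log2 transformation of the scanner values used limma 3.58.1 under R 4.3.3. Tested probes were those brighter than the array median on all 3 arrays of any group (10691 probes, 51.9%). A linear model with a mean per group was fitted to all 24 arrays (16 residual degrees of freedom), with Benjamini-Hochberg adjustment over the tested probes; every adjusted p is from this limma fit. The named probes are the 2 largest rises and the 2 largest falls among called probes whose arrays did not overlap between days. The members and lists were chosen with earlier results of these data known. The 26 gene lists drawn up were not run, since no table used here pairs probes with genes. Same-numbered arrays of the 2 days deviated together in scrambled cells (r across probes 0.328, 0.375 and 0.230) and in OE cells (0.270, 0.227 and 0.167), a pairing seen in the data and not stated in the labels. The alternatives changed the background correction, the scaling, the filter, the weights, the arrays fitted and the replicate block. On simulated data for this comparison, with 10691 probes tested, 29.9% of changes of 0.3 log2, 73.1% of 0.5 and 100% of 1 were called, and 2 of 137 calls were false. These changes were given to 67, 67 and 66 probes, against 1315 called in the data, so the adjustment was stricter in the simulation. Its noise was independent between arrays, so it could not show false calls from arrays that deviate together. Neither share is therefore an estimate for the data. Tables and plots were made with Python 3.11.15, pandas 2.3.3, NumPy 2.4.6 and matplotlib 3.10.9.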

Additional observations from a re-analysis of the deposited data

Results flagged for a closer look

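The change over time (day 4 minus day 2) differed between OE and scrambled cells at 1373 probes by the test of the difference itself (limma, adjusted p under 0.05), 626 of them with a more positive and 747 with a more negative change in OE cells. With median scaling 82.6% of 2278 called differences were positive, against 45.6% here, and the median difference of all tested probes was 0.20 log2, so that signs of small differences hold only under a given scaling. Leaving out 1 of the compared arrays at a time gave 931 to 1553 probes. At the 4 named probes the difference, OE minus scrambled, was -1.12 log2 for ILMN_25878, -1.06 for ILMN_23892, 0.74 for ILMN_8120 and 1.09 for ILMN_5188. These probes were chosen for their large changes in the same scrambled arrays, which favours a difference toward a smaller change in OE cells, so these values are a description. No group has more than 3 arrays, so no group was tested for single arrays that stand apart. The array with the largest SD from its group mean, replicate 2 of OE with RA, was left out in an added alternative.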

How the results depend on the processing

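The count of probes that differed between days in scrambled cells was 1315. It was 3240 with array weights, which ranged from 0.904 to 2.97 on the scrambled arrays and were highest on both arrays numbered 3, and 2261 when only the 6 scrambled arrays were fitted. All 1315 probes were called in the same direction with array weights and 1313 with the 6 arrays alone. With the replicate number as a block the counts were 1924 for scrambled cells, 3560 for OE cells and 1988 for the difference, each within 1.5 times that without the block, and all 1315 probes of scrambled cells were called again. Leaving out 1 of the compared arrays at a time gave 884 to 990 probes in scrambled cells. The count for the difference of the day effects, 1373, was 2278 under median scaling, 2407 under array weights and 855 when dim probes were filtered more strictly (6734 tested), and it was 942 without replicate 1 and 1553 without replicate 3 of OE on day 4, and 931 without replicate 3 of scrambled cells on day 4. The causes were not tested. With median scaling 79.8% of the called OE changes were higher, in place of 50%, and the medians in OE cells were 0.35 log2 for the risers and -0.01 for the fallers called under that scaling, against 0.15 for all tested probes; 121 fallers were then called lower in OE cells in place of 239. Each named probe was called in the same direction under all 19 alternatives, at 1.14 to 1.42 log2 for ILMN_25878, 1.11 to 1.23 for ILMN_23892, -1.81 to -1.51 for ILMN_8120 and -1.64 to -1.42 for ILMN_5188. These probes were chosen for the largest changes on the same arrays, which favours such calls, so only the range of sizes is read. A fit of the 4 groups without RA, added after the data were seen, gave 1863 probes in scrambled cells. Leaving out replicate 2 of OE with RA, also added then, gave 1835 in scrambled cells, 3421 in OE cells and 1886 for the difference, with all 1315 probes called again. The files give no slide, so a slide block was not run. The number of arrays and the compression of dim probes by the offset limit the precision.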
